A study of Mus musculus with 10 samples.

Results

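The genes described here are 35 interferon-stimulated genes, taken by symbol from the 26063 genes of a table of bulk RNA sequencing of mouse mammary tumours. They comprise 11 antiviral effectors (Ifit, Oas, Oasl and Mx families), 6 GTPases of the interferon-gamma response (Gbp2, Gbp3, Gbp5, Igtp, Irgm1, Iigp1), 3 transcription factors (Stat2, Irf7, Irf9), 4 nucleic acid sensors (Ifih1, Ddx58, Dhx58, Zbp1), Isg15 with its protease Usp18, and 9 other effectors and targets. Tumours of 5 females labelled 16IC/WT (16IC here) were set against tumours of 5 females labelled EIC/WT (EIC here). All 10 mice were of strain FVB/N and were given doxycycline (2 mg/ml), with tumours taken and frozen at end point. The labels do not spell out 16IC or EIC, nor do they give the animals' age or what drives the altered gene, while the series title names HER2∆16, a form of the receptor HER2. Each tumour came from its own named mouse, and tumour numbers (1 to 5 per genotype) carry no order or pairing.

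Interferons are secreted cytokines that warn cells of infection or of nucleic acid in the wrong place. Interferon-alpha and -beta signal through IFNAR to a complex that holds STAT2 and IRF9 and binds the interferon-stimulated response element (ISRE) in promoters of antiviral genes. Interferon-gamma, made mainly by NK and T cells, signals through IFNGR to promoters with the gamma-activated site (GAS), and it is the classic inducer of the GTPases that attack vacuoles of intracellular microbes. The programmes overlap widely, so a gene listed under one interferon usually also responds to the other. In breast tumours such genes are read as a sign of interferon exposure of tumour cells, of stroma or of infiltrating immune cells.

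Promoters of the antiviral and GTPase genes are shown to see which of them hold the ISRE and which the GAS. RefSeq promoter windows on GRCm38.p6, the 250 bases before the start, were at hand for 26 of the 35 genes. The ISRE core, GAAA, then any 2 bases, then GAAA, searched on both strands, lay in 15 of these 26 promoters (57.7%), against 3.46% of the promoters of all 27025 genes of the same table. It lay in 5 of 8 antiviral promoters and in 5 of 5 GTPase promoters. Among these GTPase windows, those of Irgm1 and Gbp5 lay inside the deposited gene for all 250 bases, and that of Gbp2 for 61 bases. Gbp3 was counted for a window with 18 bases inside the gene. A further Gbp3 window lay inside the gene for all 250 bases and held no core. The GAS letters TTCNNNGAA, which read the same on both strands, lay in 5 of 26 (19.2%), against 8.13% of all promoters. They lay in 2 of 8 antiviral and 2 of 5 GTPase promoters. In the following windows, the 120 bases before the start, 5′ to 3′ on the gene's strand, capitals mark ISRE cores and GAS letters.
Oasl2, chr5:114896814-114896933, plus strand: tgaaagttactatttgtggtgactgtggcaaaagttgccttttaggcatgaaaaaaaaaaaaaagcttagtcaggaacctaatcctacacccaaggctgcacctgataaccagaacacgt
Oas1a, chr5:120907526-120907645, minus strand: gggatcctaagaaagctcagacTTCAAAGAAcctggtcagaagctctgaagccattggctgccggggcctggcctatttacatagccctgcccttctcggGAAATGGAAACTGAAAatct
Ifit1, chr19:34640769-34640888, plus strand: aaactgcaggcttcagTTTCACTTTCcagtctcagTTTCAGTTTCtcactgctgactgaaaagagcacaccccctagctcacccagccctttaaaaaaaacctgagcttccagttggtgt
Igtp, chr11:58199436-58199555, plus strand: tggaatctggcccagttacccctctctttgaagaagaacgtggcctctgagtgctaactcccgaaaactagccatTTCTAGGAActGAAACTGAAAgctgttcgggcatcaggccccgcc
Gbp3, chr3:142559924-142560043, plus strand: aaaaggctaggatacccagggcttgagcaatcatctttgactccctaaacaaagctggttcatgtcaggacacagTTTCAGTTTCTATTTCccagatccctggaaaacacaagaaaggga
In Oas1a the 2 ISRE cores began 20 and 14 bases before the start and overlapped each other, with the GAS letters 98 bases before it. In Ifit1 the cores began 104 and 85 bases before the start on the opposite strand. In Igtp the GAS letters lay just upstream of the single ISRE core, at 45 and 34 bases. In Gbp3 2 overlapping cores began 45 and 39 bases before the start. The capitals of Oas1a and Igtp hold both kinds of letters, so the classes were not divided by these letters. The window of Oasl2, the antiviral gene with the highest mean CPM, held neither and so has no capitals. A match of letters shows no binding, and a window without them says nothing of the factor.

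All 35 genes had enough reads to be tested, the scarcest value being 18 counts in 1 tumour. Libraries held 14813940 to 16947400 counts. The tissue label was checked with epithelial markers: Epcam, Krt8, Krt18, Krt19, Cdh1 and Elf3 summed to 3185 to 4949 CPM in 16IC and 3484 to 5495 CPM in EIC, although Krt19 lay at 0 to 3.53 CPM in 16IC 1, 16IC 3, 16IC 4 and EIC 2. Levels are given as CPM, the count scaled to library depth with TMM factors. Single tumours stood apart for the interferon-stimulated genes: 16IC 1 was the highest of the 10 tumours for 19 of the 35 genes, EIC 4 for 13, and EIC 2 was the lowest for 34. The exception was Irgm1, lowest in EIC 3. EIC 3 was among the bottom 2 for 31 genes. In bulk tissue, fewer cells of a type and less RNA per cell cannot be told apart.

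**Figure D1:**
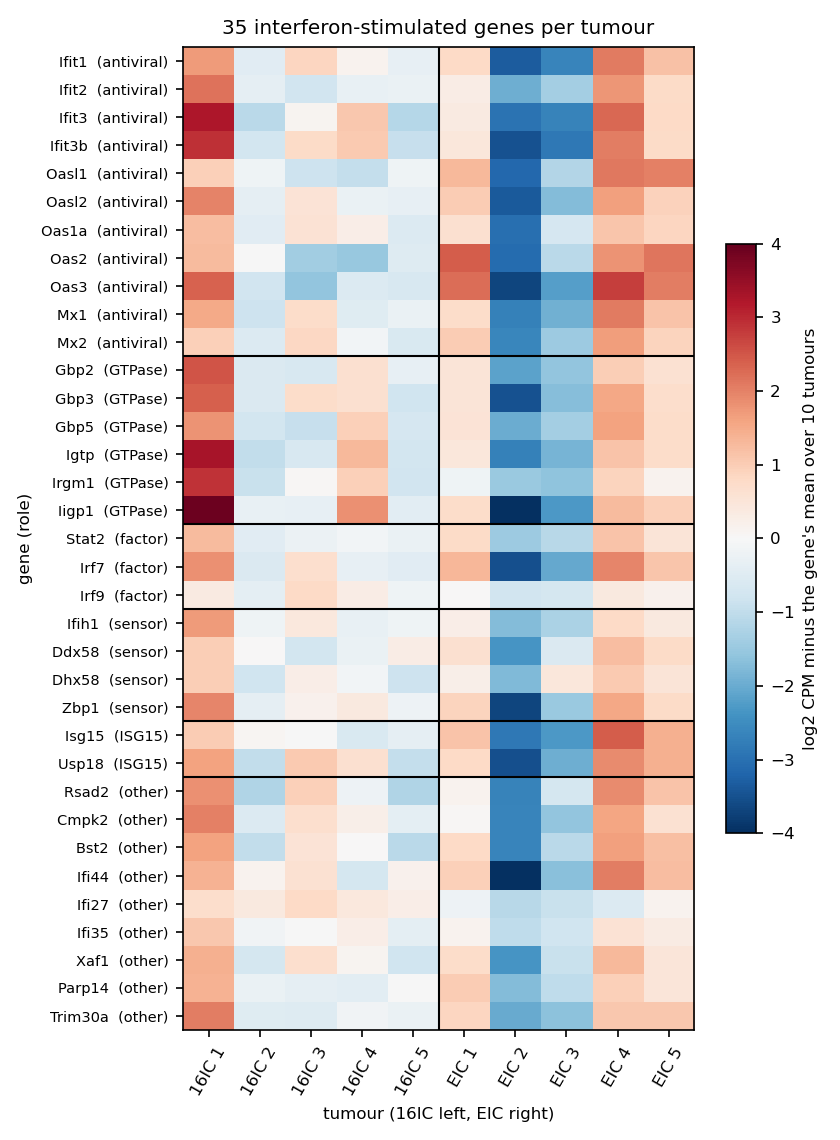
Log2 CPM of each of the 35 genes minus its mean over the 10 tumours, with genes grouped by role in rows, 16IC tumours in the left 5 columns and EIC tumours in the right 5. The columns 16IC 1 and EIC 4 are red for most genes and EIC 2 and EIC 3 are blue, so the pattern follows tumours more than genotype.

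The 35 genes did not separate the genotypes as a group. edgeR's quasi-likelihood test called none of them at an adjusted p under 0.05, and it called 0 of 14915 genes tested (0%). At an unadjusted p under 0.05 it took 1 of the 35 (2.86%), against 1958 genes in all (13.1%). DESeq2 called 1 of the 35, the same gene, Ifi27, against 356 of 16838 genes (2.11%, or 0.843% counting those higher in 16IC). In 1 of the 35 (2.86%) the groups did not overlap, again Ifi27, against 385 of the genes tested (2.58%, or 1.39% counting those higher in 16IC). Since these shares lie near or below those of all genes, the calls say nothing particular about the list. The log2 difference of 16IC over EIC was positive for 19 genes and negative for 16 (15 positive when libraries were scaled by total count). It ran from -1.52 (Oas2) to 1.76 (Iigp1), with a median of 0.06 against -0.02 for all genes tested. Without 16IC 1 the median was -0.56, without EIC 2 -0.22 and without EIC 4 0.48.

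The spread between tumours of one genotype was far larger than for most genes. The SD of log2 CPM had a median over the 35 genes of 1.0 in 16IC and 1.77 in EIC, against 0.40 in 16IC and 0.41 in EIC over all genes tested. It lay above the all-gene median for 34 of the 35 in 16IC and for 35 of 35 in EIC. From the lowest to the highest tumour the median gene changed 25.2-fold, against 2.64-fold over all genes tested. Iigp1 had the widest range of the 35, 621-fold from log2 CPM (638-fold in plain CPM) between 16IC 1 and EIC 2, and Irf9 the narrowest, 2.97-fold.

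Antiviral effectors were mixed between the genotypes, 5 higher and 6 lower in 16IC with a median log2 difference of -0.15 (3 higher and -0.22 with total count scaling). None passed the test (edgeR adjusted p from 0.478 to 0.98). By family the Ifit genes, whose proteins bind foreign RNA and block its translation, differed by 0.76 in mean log2 CPM (16IC mean minus EIC mean), the Mx genes by 0.23 and the Oas and Oasl genes by -0.15. The whole class differed by 0.25 in this measure, against the edgeR median of -0.15. The sign thus depended on the measure, also for the Mx genes, for which edgeR gave -0.36 (Mx1) and -0.35 (Mx2).

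Oasl2, an oligoadenylate synthetase-like protein (ENSMUSG00000029561, chromosome 5, 114896936 to 114912234, plus strand), had 366, 72.8, 136, 76.8 and 73.9 CPM in 16IC 1 to 5, against 187, 9.03, 27.9, 292 and 176 CPM in EIC 1 to 5. The groups overlapped, and the EIC tumours fell into 3 high and 2 low values. The log2 difference was 0.07 (SE 0.82, 95% interval -1.74 to 1.88, edgeR adjusted p = 0.979), and its sign turned with total count scaling (-0.01).

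Oas1a, a synthetase of the 2-5A messenger that switches on RNase L (ENSMUSG00000052776, chromosome 5, 120896256 to 120907521, minus strand), had 145, 44.8, 92.3, 74.3 and 42.2 CPM in 16IC, against 96.1, 7.43, 38.1, 131 and 112 CPM in EIC. Its log2 difference was 0.05 (SE 0.63, edgeR adjusted p = 0.98; -0.01 with total count scaling). The value is uncertain, since 57.6% of the 50-base windows of its transcripts also occur in Oas1g. Ifit1 (ENSMUSG00000034459, chromosome 19, 34640871 to 34650009, plus strand) had 111, 25.0, 61.3, 37.6 and 27.3 CPM in 16IC, against 59.1, 3.27, 5.33, 145 and 77.7 CPM in EIC. The groups overlapped throughout, with a log2 difference of -0.15 (SE 0.88, edgeR adjusted p = 0.952).

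Oas2, a second 2-5A synthetase (ENSMUSG00000032690, chromosome 5, 120730333 to 120749853, minus strand), had 67.0, 27.9, 10.6, 9.60 and 19.4 CPM in 16IC, against 149, 3.21, 13.1, 96.8 and 123 CPM in EIC. The 3 high EIC tumours, EIC 1, 4 and 5, lay above all 16IC tumours, and EIC 2 lay below all of them. The log2 difference of -1.52 (SE 0.90, 95% interval -3.52 to 0.48) did not pass (edgeR adjusted p = 0.478), and with 1 tumour left out it ran from -2.20 to -1.14. Oas3 (-1.10) and Oasl1 (-1.26), which in mice restrains translation of Irf7, showed the same sign, and both stayed negative with each tumour left out. Ifit3 (0.72) and Ifit3b (0.75) had positive differences, but they share 51.2% and 45% of their 50-base windows with other genes, almost all with each other, and their signs turned without 16IC 1. The remaining effectors ran from -0.36 (Mx1) to 0.10 (Ifit2). Mx2, annotated as a polymorphic pseudogene, had -0.35.

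The GTPases all had positive log2 differences, with a median of 1.04, but none passed the test (edgeR adjusted p from 0.473 to 0.981). With total count scaling 5 of 6 were positive (Gbp5 -0.02) and the median was 0.95. 16IC 1 alone held the highest value of all 6 genes, and without it the median was -0.15. Without EIC 2 the median was 0.79 and with voom's quality weights, which down-weight divergent tumours, it was 0.30.

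Iigp1 (ENSMUSG00000054072, chromosome 18), an effector that coats the vacuoles of intracellular parasites in mice, had 2806, 152, 147, 663 and 138 CPM in 16IC, against 306, 4.40, 37.3, 442 and 361 CPM in EIC. 16IC 1 lay far above the rest, 16IC 4 was second, and the other 3 16IC tumours lay below EIC 1, 4 and 5. The log2 difference was 1.76 (SE 1.18, 95% interval -0.86 to 4.38, edgeR adjusted p = 0.524), and 0.27 without 16IC 1.

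Irgm1, a regulator that guards host membranes against the effector GTPases (ENSMUSG00000046879, chromosome 11, 48861968 to 48871683, minus strand), had 942, 68.7, 130.1, 245 and 73.6 CPM in 16IC, against 111, 44.9, 41.2, 236 and 140.1 CPM in EIC. The same pair, 16IC 1 and 16IC 4, was highest, and the groups overlapped. Its log2 difference was 1.35 (SE 0.78, 95% interval -0.39 to 3.09, edgeR adjusted p = 0.473), and 0.19 without 16IC 1. Igtp, a regulator of the same family (ENSMUSG00000078853, chromosome 11, 58199556 to 58207591, plus strand), had 781, 40.0, 50.9, 198 and 47.8 CPM in 16IC, against 109, 12.2, 21.8, 175 and 133 CPM in EIC. Its log2 difference was 1.31 (SE 0.98, edgeR adjusted p = 0.566), and -0.09 without 16IC 1. Igtp is uncertain because 99.2% of it lies within Irgm2 on the same strand.

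Gbp2, a guanylate-binding protein (ENSMUSG00000028270, chromosome 3, 142620602 to 142638008, plus strand), had 415, 48.9, 46.7, 114 and 57.6 CPM in 16IC, against 103, 16.3, 24.2, 145 and 109.7 CPM in EIC. Again 16IC 1 stood alone at the top, while EIC 4 exceeded 16IC 4. The log2 difference was 0.78 (SE 0.77, edgeR adjusted p = 0.662), and -0.25 without 16IC 1. Gbp3 (0.58) and Gbp5 (0.06) also turned negative without 16IC 1, and Gbp5 reached no more than 16.1 CPM in 16IC and 14.3 CPM in EIC.

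**Figure D2:**
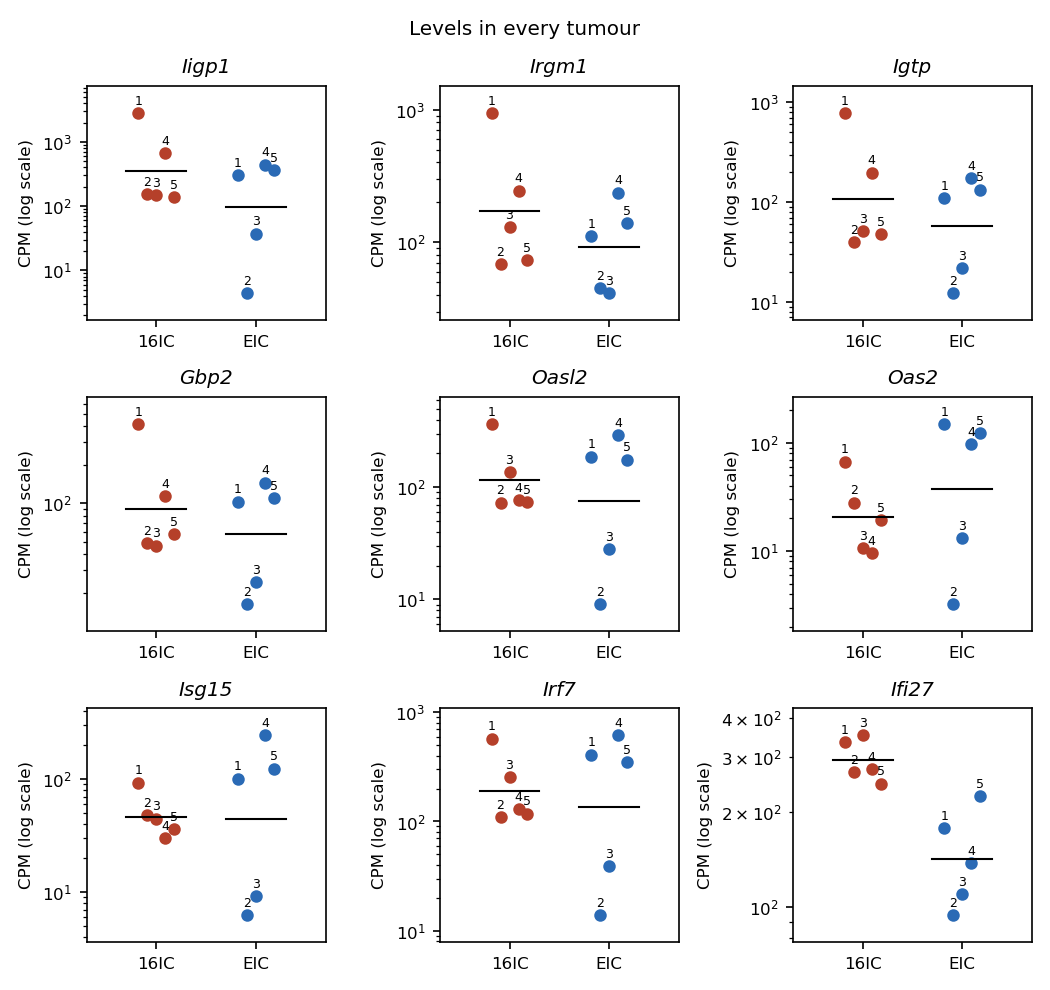
CPM on a log scale in every tumour for 9 genes, with 16IC left and EIC right in each panel, tumour numbers above the points and a line at the geometric mean of the 5 tumours. The GTPases Iigp1, Irgm1, Igtp and Gbp2 are led by 16IC 1, Isg15 and Irf7 by EIC 4, Oas2 by EIC 1, and the groups do not overlap for Ifi27.

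Set against each other in the same tumour, antiviral effectors and GTPases were high or low together in most tumours and parted in a few. Each gene's log2 CPM was taken relative to its mean over the 10 tumours and averaged within a class. Antiviral levels were 1.85, -0.52, -0.01, -0.15 and -0.52 in 16IC 1 to 5, against 1.02, -3.03, -1.80, 1.94 and 1.23 in EIC 1 to 5. GTPase levels were 2.80, -0.67, -0.29, 1.06 and -0.62 in 16IC, against 0.43, -2.86, -1.73, 1.24 and 0.65 in EIC. EIC 2 and EIC 3 were the lowest tumours in both classes, while the highest was 16IC 1 for the GTPases and EIC 4 for the antiviral effectors.

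The antiviral level minus the GTPase level was -0.95, 0.15, 0.28, -1.21 and 0.10 in 16IC, against 0.59, -0.17, -0.06, 0.70 and 0.58 in EIC. GTPases exceeded antiviral effectors most in 16IC 1 and 16IC 4, and antiviral effectors exceeded GTPases in EIC 1, EIC 4 and EIC 5, while the other tumours lay within 0.28 of 0. The difference averaged -0.33 ± 0.70 in 16IC and 0.33 ± 0.41 in EIC (SD, n = 5 each), and the groups overlapped. The genotype gap of -0.65 ran from -0.80 to -0.43 with 1 tumour left out. It was -0.50 without 16IC 1, -0.43 without 16IC 4 and -0.88 without the loci of uncertain counting. In 16IC 4, Iigp1, Irgm1 and Igtp were the second highest of all 10 tumours. The antiviral effectors of 16IC 4 differed among themselves, with Oas2 the second lowest of the 10 tumours and Ifit3 and Ifit3b the third highest.

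**Figure D3:**
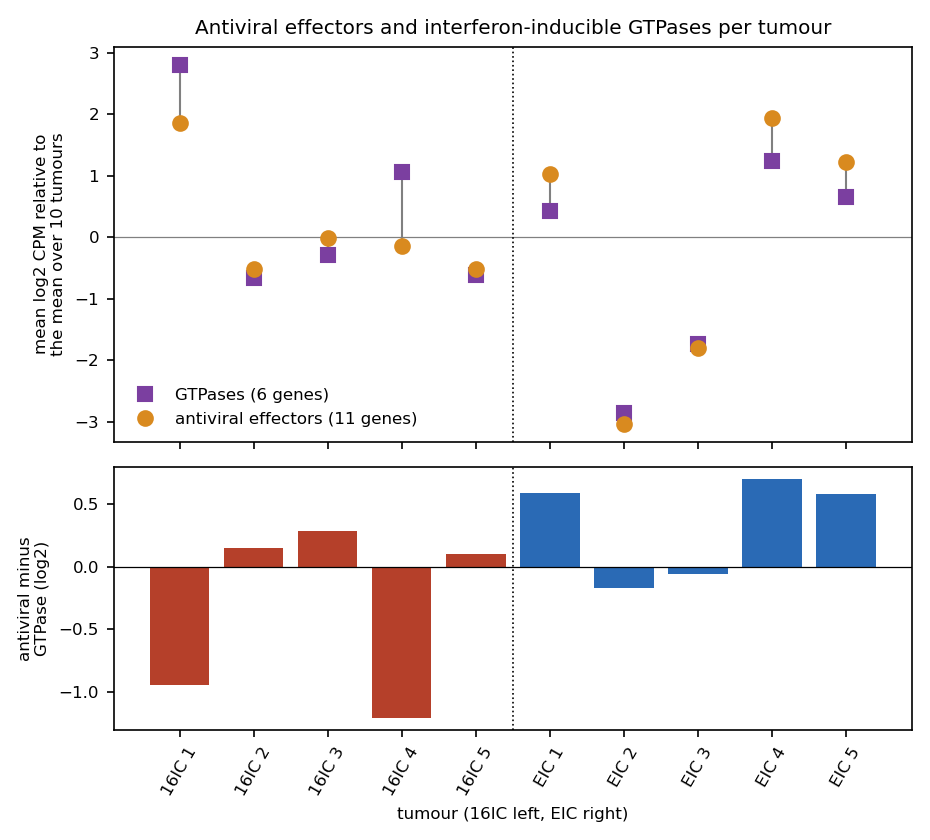
Mean log2 CPM of the 11 antiviral effectors (circles) and 6 GTPases (squares) relative to the mean over the 10 tumours, above, and their difference per tumour, below (16IC red, EIC blue). The difference reaches -0.95 in 16IC 1 and -1.21 in 16IC 4, and 0.59 to 0.70 in EIC 1, EIC 4 and EIC 5.

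Within the antiviral class the families also parted. The Ifit level minus the level of the Oas and Oasl genes was 0.95, -0.31, 0.76, 1.10 and -0.22 in 16IC, against -1.03, 0.32, -1.02, 0.17 and -0.72 in EIC. It averaged 0.46 ± 0.67 in 16IC and -0.46 ± 0.65 in EIC (SD, n = 5 each), and the groups overlapped. This split into families was chosen after the values were seen.

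The summed level of 5 NK cell markers was highest in 16IC 1 and 16IC 4, the tumours in which GTPases exceeded antiviral effectors most. The markers Ncr1, Klrb1c, Gzmb, Prf1 and Nkg7 summed to 19.7, 2.68, 4.68, 11 and 2.23 CPM in 16IC, against 5.97, 0.119, 0.659, 0.563 and 1.75 CPM in EIC. 4 of these 5 genes were at 0 in at least 1 tumour. The sum was dominated by Gzmb, the cytotoxic granule protease granzyme B, at 13.3 CPM in 16IC 1 and 7.54 CPM in 16IC 4, which DESeq2 called (adjusted p = 0.0139) and edgeR did not (adjusted p = 0.288). Gzmb, Ncr1 and Klrb1c had their 2 highest levels in 16IC 1 and 16IC 4, but the other two markers did not. Prf1, the gene of perforin, was highest in EIC 1 (1.01 CPM in 16IC 1 and 0.411 CPM in 16IC 4, against 2.32 CPM in EIC 1). Nkg7 had 2.38 CPM in 16IC 1 and 0.891 CPM in 16IC 4, against 1.27 CPM in EIC 1. The part of these cells in the result was not tested. Markers of all leukocytes summed to 60.3 to 138 CPM in 16IC and 77.5 to 188 CPM in EIC, those of T cells to 2.61 to 6.68 CPM in 16IC and 0.713 to 14.8 CPM in EIC, and those of macrophages and monocytes to 258 to 736 CPM in 16IC and 350.3 to 973 CPM in EIC. For plasmacytoid dendritic cells, without Bst2, the sums were 19.8 to 66.9 CPM in 16IC and 31.4 to 77.2 CPM in EIC. In 16IC 1, the tumour highest for most of the 35 genes, leukocyte markers stood at 96.0 CPM and macrophage markers at 280.2 CPM, inside the range of the other tumours.

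Interferon transcripts themselves were near or below detection. Of 21 ligand genes looked for, 6 were in the table and none had enough reads to test. Ifng had 0 counts in all 16IC tumours and 3 counts in EIC, all in EIC 5, where a count of 0 allows up to 0.176 to 0.216 CPM per 16IC library, counting error only. Ifnb1, the gene of interferon-beta, had 1 count in 16IC and 13 counts in EIC. At this depth no difference in Ifng between the genotypes was detectable.

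The receptors varied less between tumours, with a median range of 1.9-fold. None of the 6 passed edgeR's test, with 2 higher and 4 lower in 16IC and a median log2 difference of -0.18. Ifnar1, a chain of the interferon-alpha and -beta receptor, averaged 75.1 ± 7.07 CPM in 16IC and 82.6 ± 7.30 CPM in EIC (SD, n = 5 each). Ifngr1, a chain of the interferon-gamma receptor, averaged 64.4 ± 28.4 CPM in 16IC and 77.6 ± 30.4 CPM in EIC. Both differences lay within the spread between tumours (edgeR adjusted p = 0.6 and 0.75). Of 18 kinases, STATs, IRFs and inhibitors 11 were higher and 7 lower, median 0.05 (8 higher with total count scaling), and none passed. The most abundant by CPM were Stat3, at 408 ± 117 CPM in 16IC and 481 ± 81.1 CPM in EIC, and Ptpn11, the gene of the phosphatase SHP2, at 179 ± 25.2 CPM in 16IC and 218 ± 45.4 CPM in EIC.

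Irf1, a transcription factor that interferon-gamma induces, is named after its values were seen. It had 173, 60.4, 44.2, 47.0 and 58.3 CPM in 16IC, against 66.4, 37.8, 31.6, 83.0 and 57.5 CPM in EIC. It was highest in 16IC 1, next highest in EIC 4 and lowest in EIC 3.

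Among the 35 genes, the transcription factors had log2 differences of -0.10 (Stat2), -0.27 (Irf7) and 0.35 (Irf9), and none passed (edgeR adjusted p from 0.601 to 0.947). Irf7, which amplifies interferon-alpha production (ENSMUSG00000025498, chromosome 7, 141262706 to 141266481, minus strand), had 572, 109, 255, 129 and 118 CPM in 16IC, against 408, 13.8, 39.1, 619 and 349 CPM in EIC. It followed the antiviral class, high in 16IC 1 and in EIC 1, 4 and 5 and low in EIC 2 and 3. Irf9, the DNA-binding partner of STAT2 (ENSMUSG00000002325, chromosome 14, 55603571 to 55610030, plus strand), had 158, 94.4, 218, 153 and 111 CPM in 16IC, against 126, 73.3, 76.3, 161 and 141 CPM in EIC. Irf9 was highest in 16IC 3 and kept a positive difference with each tumour left out, from 0.16 to 0.49.

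The sensors were divided, 2 higher and 2 lower in 16IC with a median of 0.01, and none passed (edgeR adjusted p from 0.67 to 0.92). Ddx58, which encodes the RNA sensor RIG-I (ENSMUSG00000040296, chromosome 4, 40203773 to 40239828, minus strand), had 200.4, 104, 61.6, 84.5 and 126 CPM in 16IC, against 157, 19.7, 67.4, 239.9 and 171 CPM in EIC. Its log2 difference was -0.19 (SE 0.56). Zbp1, a sensor of Z-form nucleic acid that can trigger necroptosis (ENSMUSG00000027514, chromosome 2, 173206612 to 173218923, minus strand), had 216, 43.6, 62.1, 73.6 and 48.6 CPM in 16IC, against 102, 4.22, 19.7, 162 and 94.8 CPM in EIC, a log2 difference of 0.22 (SE 0.79). Both genes were lowest in EIC 2, and the groups overlapped. Ifih1 (MDA5) had 0.54 and Dhx58 (LGP2) -0.28.

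Isg15 encodes a ubiquitin-like protein that is joined to other proteins, and Usp18 the protease that removes it and also restrains IFNAR signalling. Isg15 (ENSMUSG00000035692, chromosome 4, 156199424 to 156200818, minus strand) had 93.2, 48.0, 44.7, 30.1 and 35.9 CPM in 16IC, against 101, 6.24, 9.29, 246 and 124 CPM in EIC. EIC 1, 4 and 5 lay above every 16IC tumour and EIC 2 and 3 below every one, so that EIC enclosed 16IC. The log2 difference was -0.95 (SE 0.83, 95% interval -2.80 to 0.89, edgeR adjusted p = 0.622). Usp18 (ENSMUSG00000030107, chromosome 6, 121245906 to 121270917, plus strand) had 95.3, 15.8, 64.6, 48.6 and 16.1 CPM in 16IC, against 54.0, 2.61, 7.91, 114 and 82.7 CPM in EIC. Its log2 difference was -0.12 (SE 0.87, edgeR adjusted p = 0.961), and an antisense gene, Gm44148, overlaps 62.8% of it.

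Of the 9 other effectors and targets 5 were higher and 4 lower in 16IC, with a median of 0.07 (4 higher with total count scaling). Bst2, tetherin, which holds budding virus at the cell surface (ENSMUSG00000046718, chromosome 8, 71534255 to 71537456, minus strand), had 601, 99.0, 286, 200.3 and 94.2 CPM in 16IC, against 342, 31.2, 92.5, 612 and 455 CPM in EIC. Its log2 difference was -0.26 (SE 0.75, edgeR adjusted p = 0.894). Rsad2 (viperin, an antiviral enzyme, -0.11) and its neighbour Cmpk2 (a nucleotide kinase of mitochondria, 0.45) are on chromosome 12. Ifi44 (-0.33), Ifi35 (0.28), Xaf1 (0.07), Parp14 (an ADP-ribosyltransferase, -0.05) and Trim30a (0.14) had 95% intervals that spanned 0, as did Bst2, Rsad2 and Cmpk2. All 9 were lowest in EIC 2.

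Ifi27 behaved differently from the other 34 in that its groups were separate. This gene of a mitochondrial protein (ENSMUSG00000064215, chromosome 12, 103434211 to 103440239, plus strand) had 334, 269, 352, 274 and 247 CPM in 16IC, against 178, 94.2, 110.1, 138 and 225 CPM in EIC. Every 16IC tumour lay above every EIC tumour, and EIC 4, which led 13 of the 35 genes, had only the third highest Ifi27 level of its group. The log2 difference was 0.99 (SE 0.24, 95% interval 0.46 to 1.51), with an adjusted p of 0.249 by edgeR. DESeq2 gave an adjusted p of 0.0209, as does the authors' deposited table, and kept the call in 5 of 10 fits with 1 tumour left out (highest adjusted p 0.0878). Its range over the 10 tumours was 3.73-fold.

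**Figure D4:**
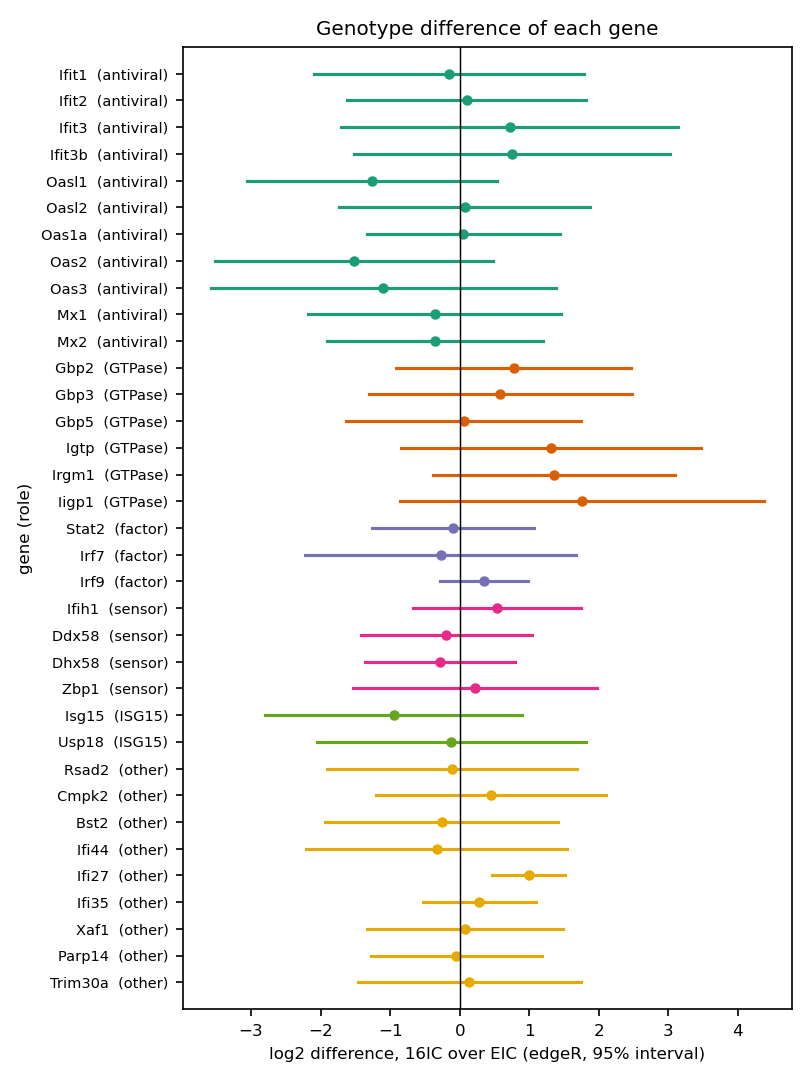
Log2 difference of 16IC over EIC (points) with 95% intervals (lines) from edgeR's quasi-likelihood fit for each of the 35 genes, coloured by role. All 6 GTPase points lie right of 0 and the Oas2, Oasl1, Oas3 and Isg15 points lie left of it near -1 or beyond, but every interval except that of Ifi27 (0.46 to 1.51) spans 0.

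Per length, the most abundant of the 35 genes were Bst2, Iigp1 and Ifi27. In the authors' FPKM, Bst2 averaged 275 ± 227 in 16IC and 330.1 ± 261 in EIC (SD, n = 5 each). Iigp1 averaged 245 ± 364 FPKM in 16IC and 71.8 ± 61.3 FPKM in EIC, and Ifi27 195 ± 28.6 FPKM in 16IC and 98.8 ± 35.6 FPKM in EIC. The least abundant was Gbp5, at 0.972 ± 0.89 FPKM in 16IC and 0.929 ± 0.777 FPKM in EIC.

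Genes of the same pathways outside the 35 gave no call. Of 134 genes listed, 118 were in the table and 107 were tested. edgeR and DESeq2 called none of them, against 0% and 2.11% of all genes. By edgeR 11 (10.3%) had an unadjusted p under 0.05, below the 13.1% of all genes tested. Of the 15 other GTPases tested, 14 had positive log2 differences with a median of 1.29, among them Irgm2 (128 ± 155 CPM in 16IC and 76.6 ± 60.3 CPM in EIC) and Ifi47 (98.6 ± 108 CPM in 16IC and 63.8 ± 54.7 CPM in EIC). Both were led by 16IC 1, at 399 CPM for Irgm2 and 288 CPM for Ifi47. The other 16IC tumours lay at 29.3 to 117 CPM and 20.6 to 80.2 CPM, below EIC 4 (160.1 and 129 CPM). Irgm2 is the gene that overlaps Igtp, so its count is uncertain too. The class level of these other GTPases was 3.39, -0.86, -0.88, 1.16 and -0.37 in 16IC, against 0.65, -2.75, -1.74, 1.2 and 0.20 in EIC. 16IC 1 was again the highest, with EIC 4 and 16IC 4 next and nearly equal.

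Other interferon-gamma targets were higher for 9 of 13 tested (median 0.37), among them the antigen-processing genes Tap1 (200.3 ± 192 CPM in 16IC and 134 ± 70.9 CPM in EIC) and Psmb8 (144 ± 101 CPM in 16IC and 112 ± 58.9 CPM in EIC). 16IC 1 led both, at 525 CPM for Tap1 and 299 CPM for Psmb8. In the other 16IC tumours Tap1 had 53.2 to 204 CPM, against 46.5 to 203 CPM in EIC. Psmb8 had 52.7 to 183 CPM there, against 45.1 to 166 CPM in EIC. The class level of these targets was 1.60, -0.53, -0.47, 0.14 and -0.34 in 16IC, against 0.63, -1.34, -1.01, 0.79 and 0.54 in EIC. It was highest in 16IC 1, while 16IC 4 lay below EIC 1, EIC 4 and EIC 5. Other interferon-alpha and -beta targets were higher for 19 and lower for 22 of 41 (median -0.06), among them Ly6e (3604 ± 1235 CPM in 16IC and 2506 ± 1233 CPM in EIC) and Ifitm3 (426 ± 211 CPM in 16IC and 400.2 ± 277 CPM in EIC). Their class level was 0.94, -0.25, -0.09, -0.25 and -0.22 in 16IC, against 0.66, -1.54, -1.04, 1.14 and 0.65 in EIC. The level of these targets minus that of the other GTPases was -2.45 in 16IC 1 and -1.41 in 16IC 4. It lay between -0.05 and 1.21 in the other 8 tumours. The highest values were those of EIC 2 (1.21), 16IC 3 (0.79), EIC 3 (0.7) and 16IC 2 (0.6). EIC 1, EIC 4 and EIC 5 had 0.01, -0.05 and 0.45. They thus did not stand out in these lists as they did for antiviral effectors over GTPases. Genes of sensing upstream of interferon were higher for 6 and lower for 8 of 14 (median -0.17), among them Trim25 (144 ± 37.9 CPM in 16IC and 167 ± 62.6 CPM in EIC) and Tlr3 (123 ± 66.1 CPM in 16IC and 101 ± 19.7 CPM in EIC).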

How the data were processed

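RNA of mammary tumours from 5 16IC and 5 EIC mice was measured, 1 library per mouse. The submitters' processing notes name Trimmomatic, STAR, HTSeq, edgeR, limma and GRCm38 (mm10), without versions or settings. The strand setting and the handling of multi-mapping reads are not stated there. The authors deposited raw counts per gene, which every test used. They also deposited normalized counts, a signal equal to counts divided by 1 factor per library and not used here, and FPKM, used for levels per length. Of the log2 differences and p-values that the authors deposited, made with a tool the sources do not name, only the adjusted p of Ifi27 was quoted.

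Counts of 14813940 to 16947400 per library were TMM-scaled, and genes were tested in R 4.3.3 with edgeR 4.0.16 (filterByExpr, minimum count 10, quasi-likelihood, robust, genotype only, Benjamini-Hochberg over 14915 genes, threshold 0.05). The median biological coefficient of variation was 33.6%, so spread between tumours, not depth, limits precision. Log2 CPM used a prior count of 2. DESeq2 1.42.0, voom of limma 3.58.1, other scalings, no filter and leaving out each tumour were alternatives. Scripts were tested on simulated data. Shared 50-base windows and overlaps come from GENCODE release M21, in which 34 of the 35 genes have the same coordinates. Values per tumour were given for genes called or not overlapping, and for the highest mean CPM in each class (4 in the antiviral and GTPase classes, 2 in each other class). Of the pathway lists, the 2 genes of highest CPM were named. Promoters were taken in order of mean CPM, and those reaching over 30 bases into the deposited gene were not printed. Members and lists were chosen with earlier results of these data known.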

Additional observations from a re-analysis of the deposited data

Results flagged for a closer look

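Dixon's ratio, the gap from a group's extreme tumour to its nearest neighbour over the group's range, exceeded the critical value of 0.71 for 5 tumours in 8 of 78 groups tested, where chance gives about 1 in 20. In 7 of the 8 the tumour was 16IC 1, high among the 16IC tumours. These were Trim30a (0.853), Ifit2 (0.824), Stat2 (0.8), Parp14 (0.776), Oas3 (0.743), the antiviral class level (0.784) and the level of all 35 genes (0.735). The eighth was Dhx58 (0.712), low in EIC 2 among the EIC tumours. The genes vary together between tumours, so these values are not independent.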

How the results depend on the processing

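Counts of genes past the threshold depended on the test. edgeR called 0 genes, whereas DESeq2 called 142 higher and 214 lower in 16IC, with 1 of the 35 among the higher (Ifi27). edgeR with 1 tumour left out called 0 to 1 gene higher (1 without EIC 1) and 0 to 2 lower (2 without EIC 2), and none of the 35. The median log2 difference with 1 tumour left out ran from -0.56 to 0.48 for the 35 genes, from -0.66 to 0.33 for the antiviral effectors and from -0.15 to 1.42 for the GTPases, in each case lowest without 16IC 1 and highest without EIC 4. With voom's quality weights these medians were -0.30, -0.31 and 0.30. The antiviral level minus the GTPase level averaged lower in 16IC than in EIC under each alternative run for it (DESeq2 size factors, total count scaling, each tumour left out, genes left out of the classes). The number of genes without overlap stayed at 1 with DESeq2 size factors, total count scaling and each tumour left out. The genotype gap was -0.73 without Oasl1, Oasl2 and Ifit3b, and -0.88 without Igtp, Oas1a, Ifit3 and Ifit3b, a choice made after seeing the data.

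Signs of single genes turned with total count scaling for Oasl2 (-0.01), Oas1a (-0.01), Gbp5 (-0.02) and Xaf1 (0.0 after rounding). They turned with voom's quality weights for Ifit2 (-0.31), Oasl2 (-0.19), Oas1a (-0.15), Gbp5 (-0.34), Xaf1 (-0.30) and Trim30a (-0.29). Total count scaling moved the median of all genes by -0.05. With 1 tumour left out the sign turned for 26 of the 35 genes. The log2 differences then ran as follows: Bst2 -0.84 to 0.15, Cmpk2 -0.19 to 1.11, Ddx58 -0.48 to 0.14, Gbp2 -0.25 to 1.11, Gbp3 -0.20 to 1.15, Gbp5 -0.57 to 0.60, Ifi35 -0.02 to 0.48, Ifi44 -0.68 to 0.25, Ifih1 -0.01 to 0.83, Ifit1 -0.61 to 0.53, Ifit2 -0.90 to 0.74, Ifit3 -0.66 to 1.72, Ifit3b -0.26 to 1.6, Igtp -0.09 to 1.69, Irf7 -0.90 to 0.22, Mx1 -0.86 to 0.32, Mx2 -0.64 to 0.11, Oas1a -0.27 to 0.33, Oasl2 -0.62 to 0.53, Parp14 -0.56 to 0.20, Rsad2 -0.76 to 0.51, Stat2 -0.56 to 0.21, Trim30a -0.74 to 0.38, Usp18 -0.52 to 0.38, Xaf1 -0.37 to 0.47, Zbp1 -0.42 to 0.68. The cause was not tested. The 9 that kept their sign in edgeR's fit were Dhx58, Ifi27, Iigp1, Irf9, Irgm1, Isg15, Oas2, Oas3 and Oasl1. For Isg15 the average log2 CPM was nearly equal in the genotypes. No paired analysis was possible because the labels give no replicate numbers that the genotypes share. Depth limits the ligands, which had too few counts to test, and some other listed genes, among them Cxcl11 and Ido1. It also limits the lymphocyte markers. Only 2 of 5 NK cell, 2 of 5 T cell and 0 of 4 B cell markers had enough counts for edgeR's test.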
